A study of Mus musculus with 12 samples.

Results

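The transcripts of 9 genes that bind, make or degrade hyaluronan were followed in mouse aortic and adipose tissue macrophages that had been separated by surface LYVE-1. They are the receptors Lyve1 and Cd44, the hyaluronidases Hyal1, Hyal2, Hyal3 and Cemip2, the synthase Has2, and the hyaluronan-binding secreted proteins Tnfaip6 and Vcan. They were chosen by name for this function, with earlier results of these data known, and they are 9 of the 46517 genes in the deposited count table. All 9 had a count in at least 1 library, and 8 passed the filter on low counts. Has2 did not pass it.

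Hyaluronan is a long unsulfated sugar chain that synthases of the HAS family spin out of the plasma membrane into the extracellular matrix. Cells hold it through receptors with a Link domain such as LYVE-1, which is known from lymphatic endothelium and from perivascular tissue macrophages, and CD44, which is found on most leukocytes. It is cut by cell-surface and lysosomal hyaluronidases and taken up by scavenger receptors, and it is cross-linked into coats and cables by binding proteins such as versican and TSG-6. In the artery wall and in fat it is a main component of the pericellular matrix.

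Bulk RNA sequencing compared 4 groups of wild-type adult C57/BL6 macrophages, with 3 libraries each: aorta LYVE1+, aorta LYVE1-, fat LYVE1+ and fat LYVE1-. Aortas of 30 mice were used, and epididymal and subcutaneous adipose tissue of 20 mice. All 4 groups passed the same gate (DAPI-, CD45+, CD64+, MerTK+, CD11b+ and F4/80+) before the division by LYVE-1 protein. Nothing in the labels ties the 3 libraries of a group to separate mice or pools, so p-values measure the spread between these libraries, which may be technical. The sex of the mice was not given in the sources used here.

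Library totals ran between 5049936 and 29792301 counts. Fat LYVE1+ library 1 and fat LYVE1- library 1 stood apart, with 8.85% and 12.14% of counts from mitochondrial genes against 1.79% to 3.2% in the other 10 libraries. Their summed erythroid markers were 25900 and 5270 CPM (a gene's counts scaled to a common library size). The library names carry 2 prefixes. All aorta LYVE1- libraries and aorta LYVE1+ library 3 share 1 prefix and the other 8 libraries share the other, so in LYVE1- cells the prefix and the tissue cannot be told apart. In the aorta the prefix is also nearly the same split as the sort, since only LYVE1+ library 3 shares the prefix of the LYVE1- libraries. With the prefix in the model, the aortic difference between the sorts rests on that library. The gate genes Ptprc, Fcgr1, Mertk, Itgam and Adgre1, and Csf1r, summed to 5000 to 9760 CPM across the libraries, and edgeR called none of these 6 genes in any comparison of 2 groups; Ptprc was called lower in LYVE1+ cells over both tissues (-0.49, adjusted p = 0.0453). In bulk samples, fewer cells that express a gene and less of its RNA per cell cannot be told apart.

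In fat, the LYVE1+ cells held more Lyve1, Hyal1 and Hyal2 and less Cd44 than the LYVE1- cells. These 4 of the 8 members tested passed edgeR's quasi-likelihood test at an adjusted p below 0.05 (a call), against 3.93% of the 14216 genes tested. The 3 higher members stand beside 1.82% of all genes called higher, and the 1 lower member beside 2.1% called lower. Lyve1 encodes the protein that defined the sort, and without it 3 of 7 members were called. In the aorta the same 4 genes pointed the same way with no overlap between libraries, and none passed. There edgeR called 0.542% of all genes. An unadjusted p below 0.05 was found for 4 members, and DESeq2 called 3 (Lyve1, Hyal1 and Hyal2) among 349 genes in all. The share of all genes with an unadjusted p below 0.05 was not computed, so such counts have no background, here or below. Libraries of the 2 sorts did not overlap for 22.4% of all genes in the aorta and for 18.9% in fat. Averaged over the tissues, 4 members were called, the same 4 genes as in fat, against 6.34% of all genes (2.91% higher and 3.43% lower).

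The difference between the sorts was not called unequal between aorta and fat for any member by edgeR. This interaction called 0.155% of all genes, and 1 member (Cd44) had an unadjusted p below 0.05. DESeq2 called no member among 111 genes in all. Between the tissues, aorta LYVE1- cells had more Hyal1 and Cemip2 than fat LYVE1- cells, 2 calls against 2.48% of all genes in either direction and 1.66% higher in the aorta. Libraries of these groups did not overlap for 3 members (Lyve1, Hyal1 and Cemip2), all higher in the aorta, and for 21.1% of all genes. Aorta LYVE1+ against fat LYVE1+ cells gave 0 member calls with edgeR, against 3% of all genes. In that comparison 3 members had an unadjusted p below 0.05, and DESeq2 called 2 (Cd44 and Hyal1) among 922 genes in all.

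**Figure D1:**
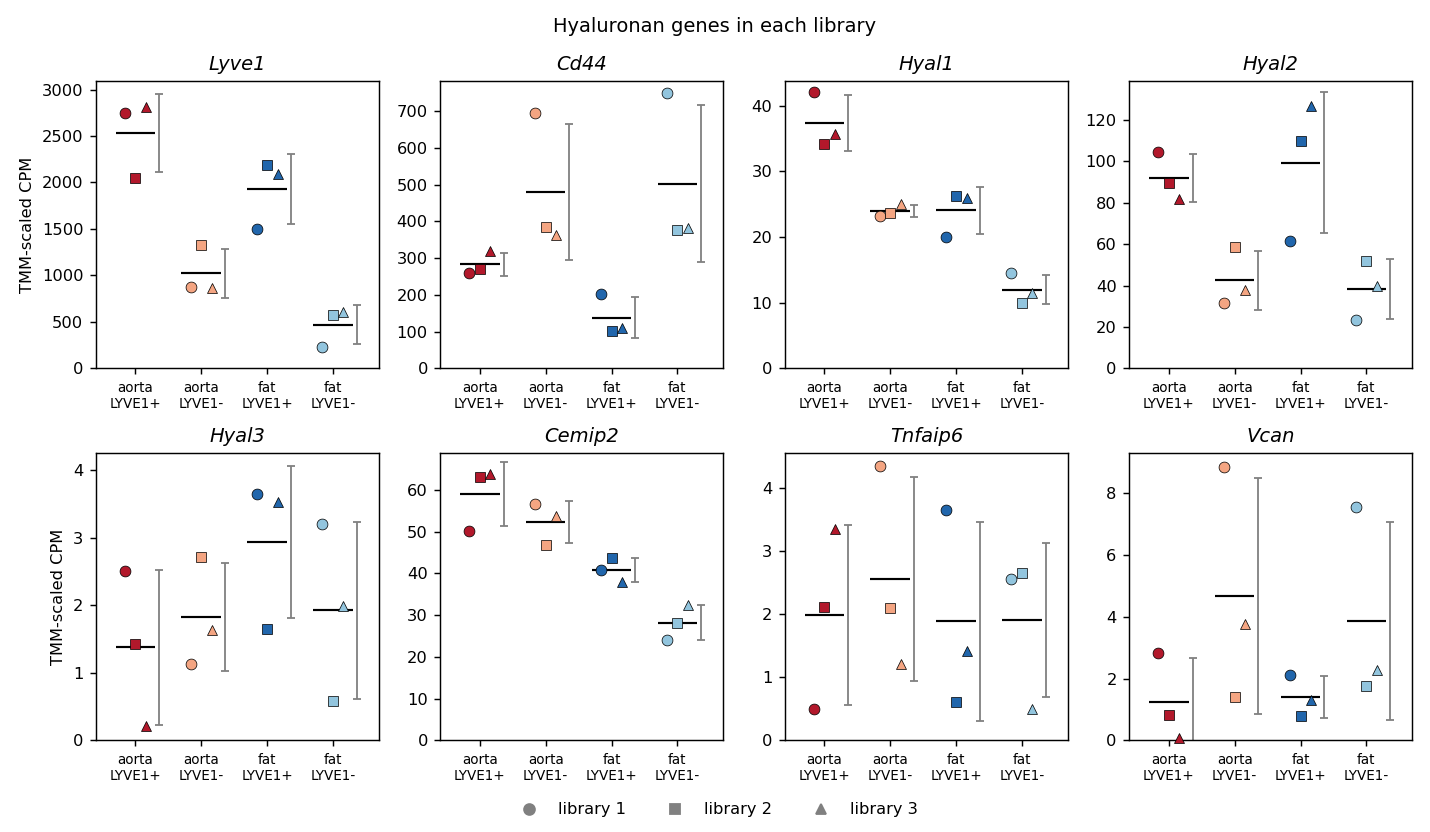
TMM-scaled CPM (vertical axis, linear, from 0) of the 8 members tested, in each of the 12 libraries. Marker shape gives the library number within a group, the black line is the mean of 3 libraries and the grey bar is 1 SD on either side; Lyve1 and Hyal2 sit higher in the LYVE1+ groups of both tissues, and Cd44 sits lower.

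Lyve1 (ENSMUSG00000030787.3, GRCm38, chromosome 7, 110850607 to 110863239, minus strand) encodes the receptor the cells were sorted by, so its transcript checks the labels. It had 2744, 2044 and 2807 CPM in aorta LYVE1+ libraries 1 to 3, against 876.9, 1323 and 868.2 CPM in aorta LYVE1- libraries. In fat it had 1497, 2193 and 2095 CPM in LYVE1+ libraries, against 230.1, 569.7 and 610.9 CPM in LYVE1- libraries. Every LYVE1+ library was above every LYVE1- library, within and across tissues. The log2 fold change of LYVE1+ over LYVE1- was 2.04 in fat (SE 0.33, 95% interval 1.33 to 2.74, edgeR adjusted p = 0.00383), a 4.1-fold difference. The aortic value was 1.31 (SE 0.32, 95% interval 0.62 to 2, adjusted p = 0.108), and over both tissues 1.67 (SE 0.23, adjusted p = 0.00104).

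Without both fat libraries numbered 1 the Lyve1 difference was 1.86 in fat (adjusted p = 0.00018) and 1.59 over both tissues (adjusted p = 9.05e-06). The aortic Lyve1 difference kept its size and was called in several other fits. It was called without both fat libraries numbered 1 (1.31, SE 0.17, adjusted p = 0.000815), with DESeq2 (1.3, adjusted p = 0.00197) and when only the aortic libraries were fitted (1.3, adjusted p = 0.0102). With the replicate number as a block it was also called (1.33, adjusted p = 0.0222), although the numbers do not pair the aortic libraries. The prefix in the model gave 1.46 (SE 0.43, adjusted p = 0.584). Within that prefix, aorta LYVE1+ library 3 had 2807 CPM against 868.2 to 1323 CPM in the 3 aorta LYVE1- libraries.

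The LYVE1- sort was not free of Lyve1 transcript. Scaled to exon length, Lyve1 averaged 867 CPM per kb in aorta LYVE1+ cells and 350 CPM per kb in aorta LYVE1- cells. In fat it averaged 661 CPM per kb in LYVE1+ cells and 161 CPM per kb in LYVE1- cells. Those levels put it at rank 100 of 14216 genes in aorta LYVE1+, 174 in aorta LYVE1-, 117 in fat LYVE1+ and 293 in fat LYVE1- cells. By mean the order was aorta LYVE1+, fat LYVE1+, aorta LYVE1-, fat LYVE1-, and only the first 2 of these groups overlapped. Lyve1 in aorta LYVE1- over fat LYVE1- cells differed by 1.12 on the log2 scale (SE 0.32, adjusted p = 0.0948). It was called without both fat libraries numbered 1 (0.79, SE 0.19, adjusted p = 0.0257), with DESeq2 (adjusted p = 0.00691) and with no filter on low counts (0.00739). For aorta LYVE1+ over fat LYVE1+ it was 0.39 (SE 0.32, 95% interval -0.29 to 1.07, adjusted p = 0.624).

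Lymphatic endothelial cells carry LYVE-1 as well, and their markers were low. The 6 markers Prox1, Flt4, Pdpn, Ccl21a, Mmrn1 and Reln, 5 of them tested, summed to 18.1 to 59.9 CPM in aorta LYVE1+ and 9.61 to 18.9 CPM in aorta LYVE1- libraries. In fat they summed to 3.1 to 16.4 CPM in LYVE1+ and 1.63 to 7.64 CPM in LYVE1- libraries. Prox1, the transcription factor that defines the lineage, averaged 3.8 CPM in aorta LYVE1+, 3 CPM in aorta LYVE1-, 2.19 CPM in fat LYVE1+ and 0.032 CPM in fat LYVE1- cells. The 59.9 CPM was aorta LYVE1+ library 2, and libraries 1 and 3 had 18.1 and 19.1 CPM. Prox1 was called higher in LYVE1+ cells in fat (edgeR adjusted p = 0.0138), and Prox1, Ccl21a and Mmrn1 were called higher over both tissues. Pdpn went the other way, at -1.02 in fat, -0.08 in the aorta and -0.55 over both tissues on the log2 scale, none of them a call. Flt4 was at 0 in 6 of the 12 libraries, Mmrn1 in 4 and Reln in 8. The part of these transcripts in the Lyve1 level was not tested.

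Cd44 (ENSMUSG00000005087.16, chromosome 2, 102811141 to 102901665, minus strand) encodes the other main leukocyte receptor for hyaluronan and moved against Lyve1. Fat gave 203.6, 102.5 and 108.9 CPM in LYVE1+ libraries 1 to 3, against 748.8, 376.5 and 381.7 CPM in LYVE1- libraries. In the aorta it had 260.4, 270.5 and 318.3 CPM in LYVE1+ libraries, against 694.6, 384.7 and 363.5 CPM in LYVE1- libraries. Every LYVE1+ library was below every LYVE1- library. In both LYVE1- groups and in fat LYVE1+ cells, library 1 was the highest.

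In fat the log2 fold change of Cd44 was -1.86 (SE 0.35, 95% interval -2.61 to -1.12, edgeR adjusted p = 0.00905), 3.64-fold lower in LYVE1+ cells. In the aorta it was -0.76 (SE 0.34, 95% interval -1.49 to -0.04, adjusted p = 0.41), and over both tissues -1.31 (SE 0.24, adjusted p = 0.00623). Without both fat libraries numbered 1 these were -1.84 (adjusted p = 0.000851), -0.76 (0.0587) and -1.3 (0.000232). Cd44 in fat was no longer called with LYVE1+ library 2 left out (adjusted p = 0.0561), with LYVE1+ library 3 left out (0.0541), or with only the fat libraries in the fit (0.0552), and the call over both tissues ended with the prefix in the model (-1.23, adjusted p = 0.0849). In that fit the aortic Cd44 difference was -0.6 (SE 0.5, adjusted p = 0.953).

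The Cd44 difference between the sorts was smaller in size in the aorta than in fat by 1.1 on the log2 scale (SE 0.47, unadjusted p = 0.0374, adjusted p = 0.807), which is not a call. Between the tissues the LYVE1- groups overlapped (aorta over fat -0.06, SE 0.33, 95% interval -0.78 to 0.66, adjusted p = 0.959). The LYVE1+ groups did not, as 3 members out of 8 did not against 20.6% of all genes. For aorta LYVE1+ over fat LYVE1+ the Cd44 difference was 1.04 (SE 0.34, adjusted p = 0.141). Without fat LYVE1+ library 1, the highest of its group, this became a call at 1.42 (SE 0.33, adjusted p = 0.0357), and with the replicate number as a block it was 1.15 (adjusted p = 0.0239). The numbers do not pair the LYVE1+ libraries across the tissues.

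The Cd44 promoter window is shown because Cd44 is the one called member that was lower in LYVE1+ cells. It is the RefSeq window of GRCm38.p6 from 250 bases before to 50 bases after the start site, chr2:102901616-102901915, read on the minus strand. Capitals mark matches to the GC box GGGCGG and to GAGGAA, the core bound by the myeloid factor PU.1, both searched on both strands.
Cd44: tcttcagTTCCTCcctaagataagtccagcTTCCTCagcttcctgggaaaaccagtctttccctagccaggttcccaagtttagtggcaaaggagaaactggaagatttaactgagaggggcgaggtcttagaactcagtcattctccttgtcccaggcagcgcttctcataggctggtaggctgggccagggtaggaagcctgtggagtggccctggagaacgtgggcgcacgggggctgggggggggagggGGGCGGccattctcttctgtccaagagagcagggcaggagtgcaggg
The GC box lies 3 bases after the start, and the GAGGAA matches, on the other strand, begin at positions -243 and -220 from it. GGGCGG was found in 35.7% of all 32851 promoter windows and GAGGAA in 28.3%. The AP-1 site TGANTCA, in 7.81% of all windows, and the TATA box TATAAA, in 13.6%, had no match in the Cd44 window.

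The ratio of the 2 receptors is a description, since the cells were sorted by LYVE-1 and neither gene overlapped between the sorts. Per kb of exon, the ratio of Lyve1 to Cd44 was 24.5, 17.5 and 20.5 in aorta LYVE1+ libraries 1 to 3, against 2.93, 7.98 and 5.54 in aorta LYVE1- libraries. In fat it was 17.1, 49.7 and 44.7 in LYVE1+ libraries, against 0.713, 3.51 and 3.72 in LYVE1- libraries. Fat LYVE1- library 1 was the only library with more Cd44 than Lyve1 per kb. Cd44 has many variable exons and its length here is the union of all of them, 6776 bases, so its level per kb is understated for any shorter form.

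**Figure D2:**
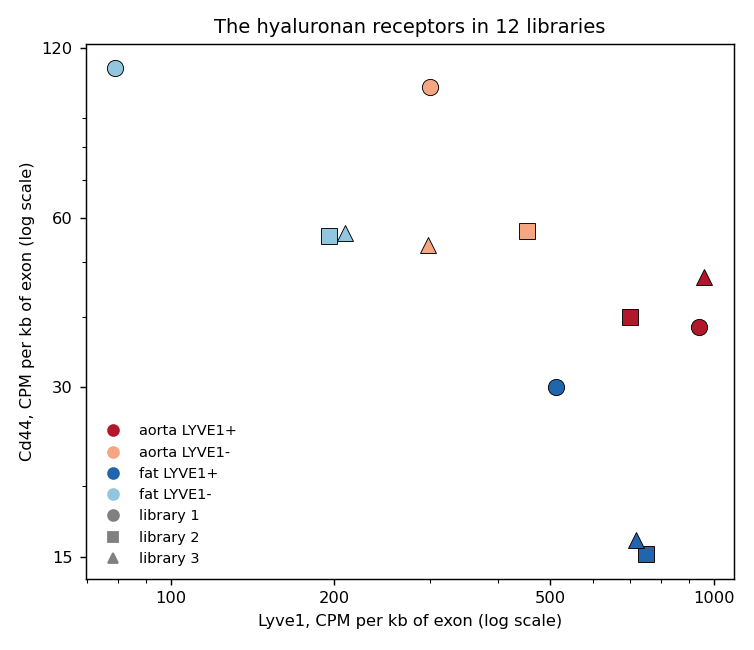
Level of Lyve1 (horizontal axis) against Cd44 (vertical axis) in the 12 libraries, both in CPM per kb of exon on log scales; colour gives the group and shape the library number. LYVE1+ libraries lie low and to the right of the LYVE1- libraries of the same tissue, and fat LYVE1- library 1, with a Lyve1 to Cd44 ratio of 0.713, lies at the upper left.

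Hyal2 and Hyal1 sit beside each other on chromosome 9, with 4147 bases between them, and both were higher in LYVE1+ cells. Hyal2 (ENSMUSG00000010047.11, 107567945 to 107572779, plus strand) encodes a hyaluronidase tethered to the cell surface, which cuts long chains to intermediate ones. Hyal1 (ENSMUSG00000010051.14, 107576927 to 107581710, plus strand) encodes the lysosomal enzyme that shortens them further. Their RefSeq promoter windows (GRCm38.p6, plus strand) are chr9:107568913-107569212 for Hyal2 and chr9:107576700-107576999 for Hyal1. They are shown because both of these neighbours were called higher in fat LYVE1+ cells, with GC boxes (GGGCGG, both strands) in capitals in both, and the CCAAT box (CCAAT, both strands) in capitals in Hyal1.
Hyal2: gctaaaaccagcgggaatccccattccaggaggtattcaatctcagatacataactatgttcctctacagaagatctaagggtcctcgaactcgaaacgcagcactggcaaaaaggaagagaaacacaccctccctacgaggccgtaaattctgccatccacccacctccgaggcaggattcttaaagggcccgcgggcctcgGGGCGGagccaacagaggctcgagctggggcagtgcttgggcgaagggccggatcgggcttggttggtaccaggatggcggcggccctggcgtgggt
Hyal1: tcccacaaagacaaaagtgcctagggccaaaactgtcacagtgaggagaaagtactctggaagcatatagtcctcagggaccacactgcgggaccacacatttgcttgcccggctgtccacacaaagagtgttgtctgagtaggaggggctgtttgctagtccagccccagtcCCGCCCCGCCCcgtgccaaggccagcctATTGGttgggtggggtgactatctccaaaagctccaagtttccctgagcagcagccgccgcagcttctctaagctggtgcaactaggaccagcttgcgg
The Hyal2 window holds 1 GC box, at position -47 from the start, 1 GAGGAA on the other strand at position -191 and no CCAAT. The Hyal1 window holds 2 GC boxes on the other strand, at positions -77 and -72 and sharing a base, and 1 CCAAT on the other strand at position -49. CCAAT was found in 37.4% of all windows. Each of the 6 members with a window (Cd44, Hyal1, Hyal2, Hyal3, Tnfaip6 and Vcan) held a GC box, and none held a TATA box or the E-box CACGTG, which 7.15% of all windows held. Lyve1, Cemip2 and Has2 had no window.

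Hyal2 had 104.7, 89.74 and 81.89 CPM in aorta LYVE1+ libraries 1 to 3, against 31.37, 58.71 and 37.83 CPM in aorta LYVE1- libraries. In fat it had 61.42, 109.9 and 126.9 CPM in LYVE1+ libraries, against 23.29, 51.92 and 39.72 CPM in LYVE1- libraries. The sorts did not overlap in either tissue, and library 1 was the lowest in both fat groups and in aorta LYVE1- cells. In fat the log2 fold change was 1.38 (SE 0.32, 95% interval 0.68 to 2.07, edgeR adjusted p = 0.0301), 2.6-fold higher in LYVE1+ cells. The aortic value was 1.11 (SE 0.32, 95% interval 0.43 to 1.79, adjusted p = 0.177) and over both tissues 1.24 (SE 0.23, adjusted p = 0.00588). Tissues did not separate Hyal2, with -0.11 for aorta LYVE1+ over fat LYVE1+ (95% interval -0.79 to 0.56) and 0.15 for aorta LYVE1- over fat LYVE1- (95% interval -0.53 to 0.84).

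The fat Hyal2 call has the largest adjusted p of the 4. It ended without fat LYVE1+ library 2 (adjusted p = 0.12) or 3 (0.155), without fat LYVE1- library 1 (0.0955) or 3 (0.0977), and when only the fat libraries were fitted (0.105). It was kept without both fat libraries numbered 1 (1.37, SE 0.26, adjusted p = 0.00702), a fit in which the aortic difference (1.11, adjusted p = 0.0104) and that over both tissues (1.24, adjusted p = 0.000395) were also called. The aortic difference was called as well with DESeq2 (adjusted p = 0.0308) and when only the aortic libraries were fitted (0.0366). It was also called with the replicate block (1.15, adjusted p = 0.0252), although the numbers do not pair the aortic libraries. With the prefix in the model the aortic value was 0.94 (SE 0.44, adjusted p = 0.855) and that over both tissues was 1.16 (SE 0.27, adjusted p = 0.0526).

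Hyal1 had 42.13, 34.2 and 35.72 CPM in aorta LYVE1+ libraries 1 to 3, against 23.21, 23.67 and 24.96 CPM in aorta LYVE1- libraries. Values in fat were 19.96, 26.26 and 25.9 CPM in LYVE1+ libraries, against 14.46, 10.01 and 11.55 CPM in LYVE1- libraries. Aorta LYVE1+ cells were highest and fat LYVE1- cells lowest without overlap, and the other 2 groups overlapped. The log2 fold change of LYVE1+ over LYVE1- was 1.01 in fat (SE 0.19, 95% interval 0.61 to 1.41, edgeR adjusted p = 0.00877), a 2.01-fold difference. It was 0.64 in the aorta (SE 0.18, 95% interval 0.26 to 1.03, adjusted p = 0.164) and 0.83 over both tissues (SE 0.13, adjusted p = 0.00239). Without both fat libraries numbered 1 it was 1.28 in fat (adjusted p = 0.0016), 0.64 in the aorta (adjusted p = 0.033) and 0.96 over both (adjusted p = 0.000281), and Hyal1 in fat was no longer called with LYVE1+ library 2 left out (adjusted p = 0.0553) or when only the fat libraries were fitted (adjusted p = 0.0932). With the prefix in the model the aortic Hyal1 difference was 0.58 (SE 0.25, adjusted p = 0.841).

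Hyal1 also differed by tissue. In aorta LYVE1- over fat LYVE1- cells it was higher by 1 on the log2 scale (SE 0.18, 95% interval 0.6 to 1.4, adjusted p = 0.0141), a 2-fold difference, and without both fat libraries numbered 1 by 1.15 (adjusted p = 0.00311). The Hyal1 call ended without aorta LYVE1- library 2 (adjusted p = 0.0514) or 3 (0.0528), without fat LYVE1- library 2 (0.0732) or 3 (0.0702), when only those groups were fitted (0.0531), and with the prefix in the model (1.1, SE 0.34, adjusted p = 0.618). In aorta LYVE1+ over fat LYVE1+ cells the difference was 0.63 (SE 0.18, adjusted p = 0.0882).

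In the annotation 50.8% of the exon bases of Hyal1 are shared with Naa80, an actin acetyltransferase gene on the same strand. How the authors' counting treated such reads was not given in the sources used here, so the level of Hyal1 is uncertain. Naa80 itself gave 0.02 in fat (SE 0.27, adjusted p = 0.981) and 0.35 in the aorta (SE 0.26, adjusted p = 0.666). Between the tissues Naa80 differed in the same direction as Hyal1, by 0.8 for aorta LYVE1+ over fat LYVE1+ (SE 0.27, adjusted p = 0.152) and 0.48 for aorta LYVE1- over fat LYVE1- (SE 0.27, adjusted p = 0.437). None of these is a call. Per kb of exon Hyal1 averaged 9.89 CPM in aorta LYVE1+, 6.34 in aorta LYVE1-, 6.37 in fat LYVE1+ and 3.18 in fat LYVE1- cells. Dividing the same CPM by only the bases Hyal1 does not share gave 20.6, 13.2, 13.2 and 6.61 CPM per kb. These values hold only if no read on shared bases was counted, and are too high otherwise. Hyal2 averaged 28, 12.9, 30.2 and 11.6 CPM per kb in the same 4 groups.

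Hyal3 (ENSMUSG00000036091.7, chromosome 9, 107580818 to 107587359, plus strand), a hyaluronidase relative whose role in chain cutting is less settled, was low. It had 2.507, 1.428 and 0.2134 CPM in aorta LYVE1+ libraries, against 1.137, 2.713 and 1.64 CPM in aorta LYVE1- libraries. In fat it had 3.647, 1.647 and 3.528 CPM in LYVE1+ libraries, against 3.199, 0.5888 and 1.991 CPM in LYVE1- libraries. All 4 groups overlapped, and over both tissues the log2 fold change was 0.1 (SE 0.58, 95% interval -1.14 to 1.35, adjusted p = 0.95). That interval holds differences of more than 2-fold in either direction. Hyal3 shares 159 exon bases with Hyal1 and 118 with Naa80.

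Cemip2 (ENSMUSG00000024754.11, chromosome 19, 21778342 to 21858360, plus strand) encodes a transmembrane protein described as a cell-surface hyaluronidase in the mouse. It had 50.15, 63.06 and 63.75 CPM in aorta LYVE1+ libraries, against 56.58, 46.67 and 53.62 CPM in aorta LYVE1- libraries. Fat levels were 40.69, 43.68 and 38 CPM in LYVE1+ libraries, against 23.93, 28.17 and 32.35 CPM in LYVE1- libraries. The tissues separated it more than the sort did, since every aortic library lay above every fat library.

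In LYVE1- cells aorta exceeded fat in Cemip2 by 0.89 on the log2 scale (SE 0.16, 95% interval 0.55 to 1.23, edgeR adjusted p = 0.0115), a 1.85-fold difference, and without both fat libraries numbered 1 by 0.79 (adjusted p = 0.0159). It was called whichever single library was left out (adjusted p between 0.0101 and 0.0484), but not with the prefix in the model (0.72, SE 0.29, adjusted p = 0.745). In LYVE1+ cells the tissue difference was 0.53 (SE 0.16, adjusted p = 0.0993). For LYVE1+ over LYVE1- it was 0.17 in the aorta (SE 0.15, 95% interval -0.16 to 0.51, adjusted p = 0.724). In fat, where the sorts did not overlap, it was 0.53 (SE 0.16, 95% interval 0.19 to 0.88, adjusted p = 0.0898), a difference that DESeq2 called (adjusted p = 0.047).

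**Figure D3:**
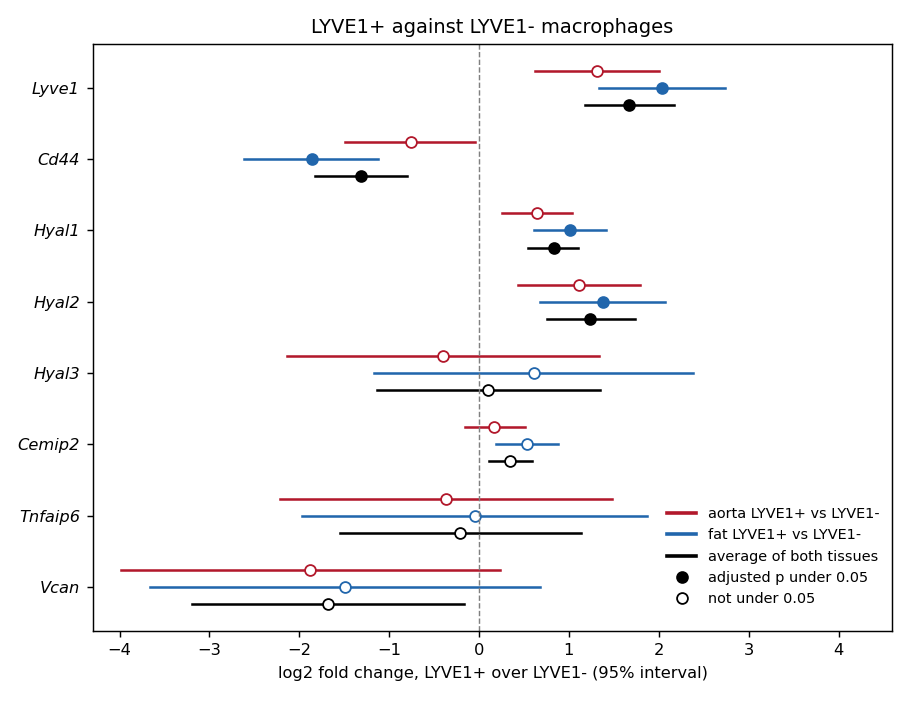
Log2 fold change of LYVE1+ over LYVE1- cells (horizontal axis) for the 8 members tested, with 95% intervals from the edgeR fit, in the aorta, in fat and as the average of both tissues. Filled points have an adjusted p below 0.05: Lyve1, Hyal1 and Hyal2 to the right of 0 and Cd44 to the left, in fat and in the average.

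Has2 (ENSMUSG00000022367.7, chromosome 15, 56665627 to 56694539, minus strand), the synthase that makes most long-chain hyaluronan in mesenchymal cells, was barely present. It had 2 counts in aorta LYVE1+ library 2 and 3 counts in fat LYVE1+ library 2, and 0 counts in the other 10 libraries. A count of 0 allows up to 0.101 to 0.594 CPM there, depending on the library's total (3 counts, counting error only). No test was made, and a difference between the groups was not detectable at this depth. Has2 overlaps the antisense gene Has2os over 182 exon bases, which had 16 counts over all libraries. Another synthase gene of the wider list, Has1, had 2.708 to 11.2 CPM in aorta LYVE1+ and 2.793 to 15.58 CPM in aorta LYVE1- libraries. In fat it had 0 to 1.344 CPM in LYVE1+ and 0.3982 to 2.431 CPM in LYVE1- libraries. No Has1 difference was called by edgeR, and DESeq2 called it for aorta LYVE1+ against fat LYVE1+ cells.

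Tnfaip6 (ENSMUSG00000053475.5, chromosome 2, 52038009 to 52056686, plus strand) encodes TSG-6, a secreted protein induced in inflammation that transfers heavy chains of the inter-alpha-inhibitor onto hyaluronan. It had 0.5015, 2.105 and 3.344 CPM in aorta LYVE1+ libraries, against 4.347, 2.103 and 1.215 CPM in aorta LYVE1- libraries. In fat it had 3.647, 0.6066 and 1.411 CPM in LYVE1+ libraries, against 2.559, 2.65 and 0.4978 CPM in LYVE1- libraries. All 4 groups overlapped, and over both tissues the log2 fold change was -0.21 (SE 0.62, 95% interval -1.55 to 1.13, adjusted p = 0.895).

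Vcan (ENSMUSG00000021614.15, chromosome 13, 89655312 to 89742509, minus strand) encodes versican, a large proteoglycan that binds hyaluronan and is known as an abundant transcript of blood monocytes. It had 2.808, 0.8268 and 0.07115 CPM in aorta LYVE1+ libraries, against 8.828, 1.391 and 3.765 CPM in aorta LYVE1- libraries. Values in fat were 2.111, 0.7799 and 1.31 CPM in LYVE1+ libraries, against 7.549, 1.767 and 2.29 CPM in LYVE1- libraries. The means were lower in LYVE1+ cells in both tissues, the libraries overlapped, and library 1 was the highest in each group. The log2 fold change was -1.88 in the aorta (SE 0.97, adjusted p = 0.505), -1.49 in fat (SE 1, adjusted p = 0.537) and -1.68 over both tissues (SE 0.7, 95% interval -3.19 to -0.17, adjusted p = 0.187), none of them a call. Scaled to its exons of 14462 bases, Vcan had rank 13729 of the 14216 genes tested in aorta LYVE1+, 12890 in aorta LYVE1-, 13654 in fat LYVE1+ and 12885 in fat LYVE1- cells.

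The summed monocyte markers were lower in LYVE1+ cells of each tissue, as Cd44 was. The 5 markers Ly6c2, Ccr2, Plac8, Chil3 and Fn1 summed to 38.4, 116 and 75.1 CPM in aorta LYVE1+ libraries 1 to 3, against 1540, 339 and 732 CPM in aorta LYVE1- libraries. In fat they summed to 865, 180 and 170 CPM in LYVE1+ libraries, against 3180, 1500 and 1490 CPM in LYVE1- libraries. In both LYVE1- groups and in fat LYVE1+ cells the library with the highest sum was library 1, as for Cd44. Between the tissues the sum and Cd44 did not go together. Fat LYVE1+ libraries had the higher sums, 170 to 865 CPM against 38.4 to 116 CPM in aorta LYVE1+, but the lower mean Cd44, 138.3 against 283 CPM. In LYVE1- cells the sums were 1490 to 3180 CPM in fat and 339 to 1540 CPM in the aorta, and mean Cd44 was 502.3 and 481 CPM. Ccr2, the chemokine receptor of recruited monocytes, was called lower in LYVE1+ cells in the aorta (log2 fold change -4.4, SE 0.49, adjusted p = 0.00198) and in fat (-3.11, SE 0.46, adjusted p = 0.00237). Of the 5 markers, 1 was called lower in each tissue and 2 over both, Ccr2 and Fn1. The sum is mostly Fn1 and Ccr2, and single markers went the other way. In fat Plac8 averaged 23.9 CPM in LYVE1+ and 11.1 CPM in LYVE1- cells, and in the aorta Chil3 averaged 4.47 CPM in LYVE1+ and 1.12 CPM in LYVE1- cells (log2 fold change 2.05, adjusted p = 0.635). The part of monocyte-derived cells in the Cd44 and Vcan values was not tested.

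A wider list of 42 hyaluronan genes set these members in their pathway. Of these, 37 had a count and 25 were tested. Spam1, Acan, Bcan, Hapln2 and Hapln3 had no count in any library. Among the 25, fat LYVE1+ cells had 4 calls upward and 2 downward, beside 3.93% of all genes called in either direction, with a median log2 fold change of -0.16 against 0 over all genes. Most of these calls are the members reported above. Without the members 17 list genes were tested. Of those, 1 was called higher and 1 lower in fat (median -0.31), and 1 higher and 2 lower over both tissues. Over both tissues 4 of the 25 were called higher and 3 lower, beside 6.34% of all genes (median 0.11 against -0.01). Of the 3 lower, Itih5 passed the filter on low counts through the groups where it is high. Those 7 calls were 3 with the prefix in the model (Lyve1, Stab1 and Hyal1), and 10 with DESeq2, which added Ugdh, Layn and Hexa. They were 11 without both fat libraries numbered 1 and 12 with the replicate block, and both of these fits added Ugdh, Gnpda1, Tlr4 and Hexa. In the aorta edgeR called none (median 0.37 against -0.01), 9 had an unadjusted p below 0.05, and DESeq2 called 5 among 349 genes in all.

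By role, the calls over both tissues fell on receptors, degradation genes and 1 binding protein. Of the 8 receptors tested 2 were called higher and 2 lower. Of 6 degradation genes 2 were called higher, and of 5 binding proteins 1 was called lower. Of 6 genes listed under synthesis none were called by edgeR, and DESeq2 called 1 (Ugdh). With edgeR 3 of those 6 had an unadjusted p below 0.05, in unlike directions: Ugdh (-0.45) and Gfpt1 (-0.42) were lower and Gnpda1 (0.47) was higher. The receptors besides the members were Stab1, higher, and Hmmr, lower, and the binding protein was Itih5, lower. Itih5 passed the filter on low counts through the groups where it is high, so its call carries little about binding proteins as a role. No test was made of whether one role differed from another.

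**Figure D4:**
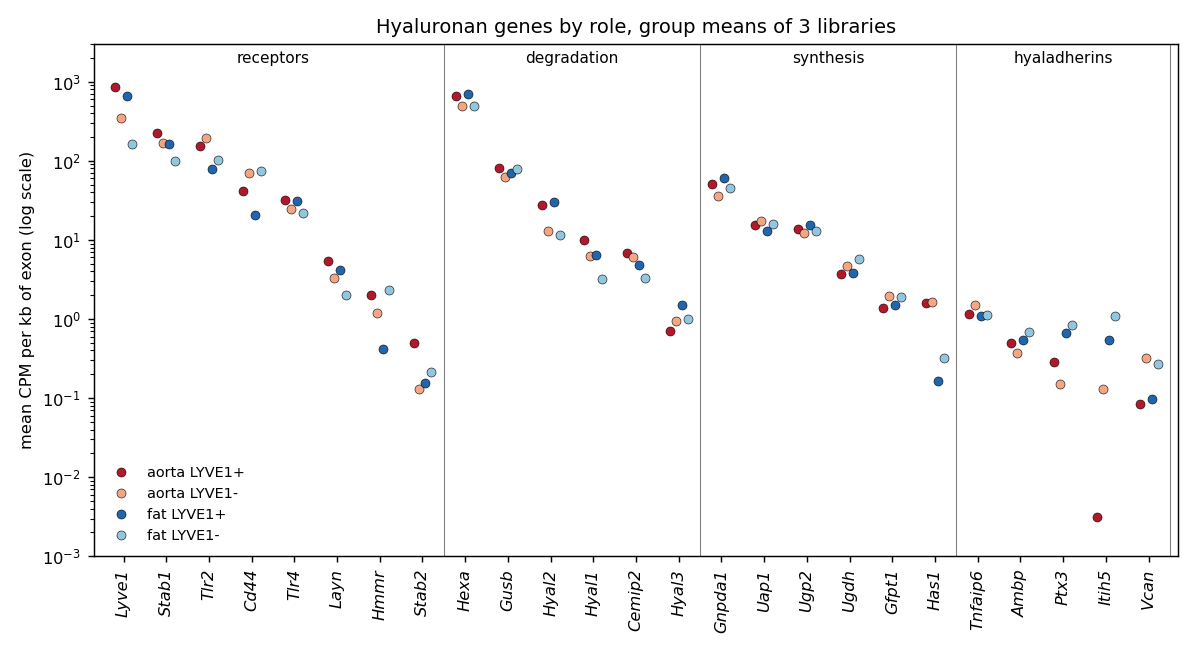
Mean level in CPM per kb of exon (vertical axis, log scale) of the 25 hyaluronan genes tested, grouped by role, with 1 point per group of 3 libraries. Lyve1 is the highest of the receptors in every group, down to 161 CPM per kb in fat LYVE1- cells.

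Stab1, a scavenger receptor of macrophages that takes up matrix ligands, averaged 227 CPM per kb in aorta LYVE1+, 166 in aorta LYVE1-, 161 in fat LYVE1+ and 99.1 in fat LYVE1- cells. It had 1669, 1728 and 1566 CPM in fat LYVE1+ libraries, against 852.3, 1155 and 1052 CPM in fat LYVE1- libraries. In the aorta it had 2285, 2239 and 2481 CPM in LYVE1+ libraries, against 1550, 1878 and 1705 CPM in LYVE1- libraries. The log2 fold change was 0.7 in fat (SE 0.15, edgeR adjusted p = 0.0233) and 0.57 over both tissues (SE 0.11, adjusted p = 0.00797). Stab1 in fat was no longer called with LYVE1+ library 2 (adjusted p = 0.114) or 3 (0.0802) left out, with LYVE1- library 1 (0.0593) or 3 (0.0777) left out, with no filter on low counts (0.0641) and with only the fat libraries (0.151). In LYVE1- cells aorta exceeded fat by 0.75 (SE 0.15, adjusted p = 0.0252), a call that ended without any aorta LYVE1- library, without aorta LYVE1+ library 1 or fat LYVE1- library 3 (adjusted p 0.0504 to 0.116), with only those groups (0.0691) and with the prefix in the model (0.61, adjusted p = 0.801).

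Hmmr, first described as a hyaluronan receptor and also a protein of the mitotic spindle, was the one list gene whose sort difference was called unequal between tissues. It had 1.919, 2.6 and 2.217 CPM in fat LYVE1+ libraries, against 8.189, 12.17 and 17.42 CPM in fat LYVE1- libraries. In the aorta it had 12.64, 10.37 and 9.534 CPM in LYVE1+ libraries, against 5.083, 8.174 and 6.255 CPM in LYVE1- libraries. The libraries of the sorts did not overlap in either tissue, in opposite directions. The aortic difference was 0.73 (SE 0.32, edgeR adjusted p = 0.395), which is not a call. Hmmr was called lower in fat (log2 fold change -2.47, SE 0.35, edgeR adjusted p = 0.00175), and aorta LYVE1+ exceeded fat LYVE1+ by 2.25 (SE 0.34, adjusted p = 0.0042). The call of lower over both tissues (-0.87, SE 0.23, adjusted p = 0.0416) averages these opposite values, and it ended in 10 of 12 fits that left out 1 library, without the filter (adjusted p = 0.0639) and with the prefix (0.147).

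Tlr2, a pattern receptor reported to sense hyaluronan fragments, was higher in the aorta in both sorts. It had 482.7, 373.7 and 551.8 CPM in aorta LYVE1+ libraries, against 206.5, 254.9 and 253.2 CPM in fat LYVE1+ libraries. It had 682.2, 581.8 and 505.1 CPM in aorta LYVE1- libraries, against 332.9, 300.1 and 281.7 CPM in fat LYVE1- libraries. The differences were 0.98 (SE 0.18, edgeR adjusted p = 0.0102) and 0.95 (SE 0.18, adjusted p = 0.014), and with the prefix in the model 0.85 (adjusted p = 0.0501) and 0.59 (adjusted p = 0.828). In LYVE1+ cells the call ended without aorta LYVE1+ library 3 (0.0517). In LYVE1- cells it ended without aorta library 1 (0.0636) or 2 (0.0514) or fat library 2 (0.0668) or 3 (0.0786).

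Itih5, an inter-alpha-inhibitor heavy chain known from stromal cells, had 0, 1 and 0 counts in aorta LYVE1+ libraries, against 45, 40 and 7 counts in fat LYVE1+ libraries. In LYVE1- cells it had 10, 20 and 28 counts in aorta libraries, against 93, 90 and 51 counts in fat libraries. It passed the filter on low counts through the groups where it is high. In the fit of all libraries it was called lower in aorta LYVE1+ than in fat LYVE1+ cells (edgeR adjusted p = 0.00654), a comparison for which the fit with only those groups gave no value and no call, and lower in LYVE1+ than in LYVE1- cells over both tissues (adjusted p = 0.023). No fold is given, because the aorta LYVE1+ group holds 1 count in all. The call over both tissues ended with the prefix in the model (adjusted p = 0.154), and without aorta LYVE1+ library 1 (0.0766) or 3 (0.0621), aorta LYVE1- library 3 (0.0521) or fat LYVE1+ library 2 (0.0604). Fibroblast markers summed to 1220 to 3450 CPM in aorta LYVE1+ and 1730 to 2730 CPM in aorta LYVE1- libraries, against 729 to 1270 CPM in fat LYVE1+ and 958 to 1890 CPM in fat LYVE1- libraries. Adipocyte markers (Adipoq, Plin1, Lep, Cidec, Fabp4 and Car3) lay the other way between the tissues. They summed to 10.1 to 21 CPM in aorta LYVE1+ and 15.7 to 26.1 CPM in aorta LYVE1- libraries. In fat they summed to 54 to 245 CPM in LYVE1+ and 93.8 to 247 CPM in LYVE1- libraries. The part of either cell type in the Itih5 values was not tested. Without both fat libraries numbered 1, every edgeR call named here for Stab1, Hmmr, Tlr2 and Itih5 was kept.

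The genes whose level across the 12 libraries was most like that of Lyve1 were sought among 6968 genes whose mean log2 CPM reached 4. Pearson's r of log2 CPM was 0.98 for Plekhm1, 0.978 for Rnase4, 0.976 for Ang, 0.976 for Colec12 and 0.972 for Myo7a. The libraries share their groups, so r includes the differences between groups. After the group means were subtracted, r was 0.839 to 0.933 for these 5 genes. Without both fat libraries numbered 1, r was 0.96 to 0.967. The r within groups keeps those libraries, and no r was taken with both changes at once, here or for Cd44 below. Rnase4 and Ang share a locus, so their counts may not be independent.

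For Cd44 the most alike were Fxyd5 (r = 0.963), Il1rn (0.959), Atp13a3 (0.951), Slc15a3 (0.949) and Rgs1 (0.939), at 0.848 to 0.948 within groups and 0.936 to 0.971 without both fat libraries numbered 1. For Vcan, whose counts are sparse, they were Arid4a (0.901), Sec63 (0.867), Aim2 (0.861), Zdhhc21 (0.833) and Naa15 (0.831). These values describe the libraries and carry no test.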

How the data were processed

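Gene counts, raw whole numbers per gene, were deposited by the authors for 12 libraries made by a modified SMARTSeq v2 protocol from 2 ng of RNA with ERCC spike-ins and sequenced as paired reads of 51 cycles, per the labels' protocols. The authors also deposited log2 CPM, which equalled edgeR's log2 CPM (TMM, prior count 0.25) to within 4.97e-14, and was not used further. Per the submitters' processing notes, the tools were STAR 2.5.2b, featureCounts 1.5.0 and edgeR 3.14.0, with GRCm38. For the strand setting and the treatment of reads in overlapping genes, the sources used here give nothing. Reads without molecular identifiers are not independent molecules, so limits from counts cover counting error only.

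Symbols, coordinates and exon lengths came from GENCODE M21, which gave a symbol to 46005 of 46517 genes; 25331 had a count. One quasi-likelihood fit with edgeR 4.0.16 (R 4.3.3) held all 12 libraries, with a mean for each group (8 residual degrees of freedom) and TMM scaling; filterByExpr left 14216 genes. Tests were two-sided and adjusted by Benjamini-Hochberg over all 14216 genes. They were checked on simulated counts with the same spread for every gene and changes in fat LYVE1+ libraries only. Those counts held no prefix effect and no libraries set apart, so the check does not cover these features of the data. The SE is the size of the log2 fold change divided by the square root of F. Levels are TMM-scaled CPM; marker sums use plain CPM; levels of different genes are compared only per kb of exon union. Promoter windows and motifs came from RefSeq (GRCm38.p6), matched by symbol for 6 of 9 members.

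The members, lists and tests were chosen with earlier results of these data known. The text names all members; other genes of the list that were called, or had no count; for Lyve1, Cd44 and Vcan the 5 genes of highest r (log2 CPM, prior count 2); the gate genes; and overlapping genes. Markers were named as results called for. A pair of genes, 1 of the hyaluronan list and 1 of the monocyte markers, is not reported here and was left out of the lists' counts and sums. Alternatives were RLE factors, DESeq2 1.42.0, no filter, only the groups compared, no fat libraries numbered 1, the prefix as a term, a replicate block and leaving out each library.

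Replicate numbers paired the 2 sorts in fat, where deviations of same-numbered libraries from their group means correlated at r = 0.66, 0.46 and 0.4, and LYVE1- cells across tissues (0.38, 0.18 and 0.11). They did not pair the sorts in the aorta (-0.03, -0.26 and -0.43) or LYVE1+ cells across tissues (-0.24, 0.12 and -0.33). Unlike numbers 2 and 3 correlated about as much, at 0.46 and 0.36 in fat and at 0.25 and 0.15 in LYVE1- cells, so only libraries numbered 1 are set apart by number. Replicates of a group differed beyond counting noise in every pair.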

Additional observations from a re-analysis of the deposited data

Results flagged for a closer look

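The difference between LYVE1+ and LYVE1- cells in Hmmr was unequal between the tissues, by 3.2 on the log2 scale (aorta minus fat, SE 0.47, edgeR adjusted p = 0.0206). The aortic difference by itself was 0.73 (SE 0.32, adjusted p = 0.395) and was not called. Aortic means of Hmmr were 10.85 ± 1.61 CPM (LYVE1+) and 6.504 ± 1.56 CPM (LYVE1-), and fat means were 2.246 ± 0.341 CPM (LYVE1+) and 12.59 ± 4.63 CPM (LYVE1-; SD, n = 3 each). All 3 aorta LYVE1+ libraries were above all 3 aorta LYVE1- libraries, and all 3 fat LYVE1+ libraries were below all 3 fat LYVE1- libraries. Leaving out 1 library gave 2.9 to 3.43, with 3 of 12 fits below an adjusted p of 0.05, and the prefix in the model gave 3.02 (adjusted p = 0.182).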

How the results depend on the processing

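Of the 4 members called in fat, Lyve1 was called under every alternative run. All 4 were called with RLE factors, DESeq2, no filter, the replicate block and without both fat libraries numbered 1. All 4 were also called with the prefix in the model, but all fat libraries share 1 prefix. That term could therefore not change the size of a difference within fat. Fitting only the groups compared left 1 of them (Lyve1). In the aorta, where none was called, DESeq2 and the fit without both fat libraries numbered 1 called 3 each, and no filter, only the aortic groups and the replicate block called 2 each; the numbers do not pair the aortic libraries. Over both tissues the prefix left 2 (Lyve1 and Hyal1). For aorta LYVE1+ against fat LYVE1+, DESeq2 called 2, and no filter, the replicate block and the fit without both fat libraries numbered 1 called 1 each (Cd44). For aorta LYVE1- against fat LYVE1-, only those groups left 1 (Cemip2) and the prefix 0, while DESeq2, no filter and the fit without both fat libraries numbered 1 called 3 each, with Lyve1 added. DESeq2 called 5 in fat, with Cemip2 added. The block changed no other member call. Leaving out 1 library gave 0 to 1 members called in the aorta, 1 to 4 in fat, 4 to 4 over both tissues, 0 to 0 in the interaction, 0 to 1 between LYVE1+ groups and 1 to 2 between LYVE1- groups.

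Over all genes the calls in the aorta were 77, against 2 with the prefix and 566 without both fat libraries numbered 1, 349 with DESeq2, 336 with no filter, 294 with only the groups compared and 243 with the block. In fat they were 558, against 206 with only the groups compared, 1022 with DESeq2, 887 without both fat libraries numbered 1 and 915 with the block. Over both tissues they were 901, against 278 with the prefix and 1524, 1571 and 1470 with DESeq2, without both fat libraries numbered 1 and with the block. The interaction had 22, against 111 with DESeq2, 72 with no filter, 84 without both fat libraries numbered 1 and 0 with the prefix. LYVE1+ cells by tissue had 426, against 922, 820, 890, 243 and 181 with DESeq2, no filter, no fat libraries numbered 1, only those groups and the prefix. LYVE1- cells by tissue had 353, against 850, 647, 1024 and 7 with DESeq2, no filter, no fat libraries numbered 1 and the prefix. Leaving out 1 library gave 23 (without aorta LYVE1- library 1) to 210 calls in the aorta, 219 (without fat LYVE1+ library 2) to 1025 in fat, 494 (without aorta LYVE1- library 1) to 1635 over both tissues and 0 to 47 in the interaction. It gave 172 (without fat LYVE1+ library 3) to 538 between LYVE1+ groups and 98 (without fat LYVE1- library 3) to 531 between LYVE1- groups. The highest counts came without fat LYVE1+ library 1, except between LYVE1+ groups, where it was without fat LYVE1- library 1.

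Values that changed sign belonged to differences that were not called. Without both fat libraries numbered 1, aorta over fat in LYVE1- cells was 0.34 for Cd44, -0.1 for Hyal2 and 0.51 for Hyal3, Vcan in LYVE1+ cells was 0.28, and the Tnfaip6 interaction was 0.28. With the prefix, Hyal3 was -1.22 over both tissues and 3.1 between LYVE1- groups; Tnfaip6 was 0.39 in the aorta, 0.17 over both, 0.44 in the interaction, -0.5 between LYVE1+ and -0.95 between LYVE1- groups; and Vcan was 0.43 between LYVE1+ groups. The block gave Hyal3 0.15 between LYVE1- groups. The cause was not tested.

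Leaving out 1 library also turned the sign of uncalled values. In aorta over fat LYVE1- cells the range was -0.42 to 0.34 for Cd44, -0.15 to 0.44 for Hyal2, -0.48 to 0.51 for Hyal3, -0.18 to 0.76 for Tnfaip6 and -0.58 to 1.19 for Vcan. In aorta over fat LYVE1+ cells it was -0.36 to 0.11 for Hyal2, -0.5 to 0.97 for Tnfaip6 and -1.59 to 0.43 for Vcan. In the interaction it was -0.55 to 0.04 for Hyal2, -0.93 to 0.54 for Tnfaip6 and -1.86 to 0.46 for Vcan. In the aorta it was -1.16 to 0.1 for Hyal3 and -0.98 to 0.24 for Tnfaip6, in fat -0.91 to 0.38 for Tnfaip6, and over both tissues -0.28 to 0.39 for Hyal3 and -0.64 to 0.1 for Tnfaip6. Depth limits Has2, which was not tested. For Hyal3, Tnfaip6 and Vcan differences of more than 2-fold in either direction lie within the interval of at least 1 comparison, and the parts of counting error and of spread between libraries in this were not tested.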
